A study of Mus musculus with 20 samples.

Results

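The cone phototransduction genes are the 10 transcripts *Opn1sw*, *Opn1mw*, *Gnat2*, *Gnb3*, *Gngt2*, *Pde6c*, *Pde6h*, *Cnga3*, *Cngb3* and *Arr3*, chosen by gene symbol from the 24411 genes of the deposited table. All 10 were found, and all 10 passed the filter on low values, which left 18807 genes. The members were picked with an earlier look at these data, and *Cnga3*, *Pde6h*, *Opn1sw* and *Arr3* are named by the study for VAS Stra6-/- against VAS WT. Values for that comparison are therefore a description without a test.

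RNA of the outer eyecup (RPE-choroid, the retinal pigment epithelium with its vascular bed) was sequenced from C57BL/6 mice in 4 groups of 5 libraries. WT and Stra6-/- mice were kept after weaning for 12 weeks on a vitamin A sufficient (VAS, 4 IU/g) or deficient (VAD, 0 IU/g) diet, which gave the groups VAS WT, VAD WT, VAS Stra6-/- and VAD Stra6-/-. By the methods of the study, a library held both eyecups of 1 mouse after the neural retina had been peeled off with dispase, so that photoreceptor transcripts come from retina left on the eyecup. By the same methods the Stra6-/- line has a C57BL/6J background. Stra6 is the receptor through which the RPE takes up retinol from the blood, and the labels name no cell type to which its loss is limited. The reads counted on genes, as worked out from the values, ran from 13331903 to 21878614 in a library, which is not the number of reads sequenced. The values are gene counts divided by 1 size factor per library and are called normalized values here.

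Cones are the photoreceptors of daylight and color vision. In a cone, an opsin bound to a vitamin A-derived chromophore activates the G protein transducin, transducin activates the phosphodiesterase PDE6, and the fall in cyclic GMP closes a cation channel, while an arrestin ends the signal of the opsin. Rods use the same cascade with their own subunits, so that nearly every cone gene has a rod counterpart to be read in the same library.

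The labels and the RNA did not match in every group. *Stra6* lay between 2414 and 2742 in VAS WT, between 669 and 1529 in VAD WT and between 564 and 694 in VAS Stra6-/-, but between 1973 and 2393 in the libraries labeled VAD Stra6-/-, above every VAD WT library. Those 5 libraries are called by their label below, and every direction drawn from them rests on it. Their summed level of 8 RPE genes ran from 464344 to 505088, against 27572 to 52015 in VAD WT, and that of 7 surface epithelium genes from 16272 to 21786, against 336803 to 1057654. No listed gene of either kind was at 0 in all libraries of a group. Within VAD WT, *Stra6* was at 693, 697 and 669 in replicates 1, 3 and 5, near VAS Stra6-/-. In replicates 2 and 4 it was at 1340 and 1529. Every VAD WT library thus lay below every VAS WT library in *Stra6*, and directions drawn from VAD WT rest on its label too. VAD WT replicates 2 and 4 stood apart from the other VAD WT libraries, with *Gnat1*, the rod transducin alpha subunit, at 76523 and 79454 against 32516 to 33881. They also stood apart in genes that tell the sexes apart. *Xist*, the RNA of the inactive X chromosome of females, was at 10912 and 11767 there against 174 to 234 in the others, and *Ddx3y*, a gene of the Y chromosome of males, at 75.2 and 80.5 against 1041 to 1133. *Xist* was at 7.69 to 38.4 in VAS WT, 15320.2 to 18052 in VAS Stra6-/- and 3569.8 to 4279.6 in the libraries labeled VAD Stra6-/-, and *Ddx3y* at 981 to 1193, 0 to 1.02 and 741 to 970 in the same order. Sex and genotype thus cannot be told apart in VAS Stra6-/- against VAS WT, and the libraries labeled VAD Stra6-/- held RNA of both genes, although by the methods each was made from 1 mouse. Both genes also differed without overlap between VAS Stra6-/- and the libraries labeled VAD Stra6-/-, so that the diet cannot be told apart from this difference there. *Opn1mw* and *Arr3* lie on the X chromosome. The part of these differences in the results for the cone genes was not tested. In bulk tissue, fewer cones and less RNA per cone cannot be told apart.

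In GRCm38, with gene bounds from GENCODE vM21, *Opn1sw* lies at chr6:29376671-29388468 on the minus strand, *Opn1mw* at chrX:74127464-74150760 on the plus strand, *Gnat2* at chr3:108092789-108101432 on the plus strand, *Pde6h* at chr6:136923832-136968865 on the plus strand and *Arr3* at chrX:100605497-100618493 on the plus strand. *Cnga3* lies at chr1:37214434-37263384, *Cngb3* at chr4:19280850-19510623, *Gngt2* at chr11:95837216-95845734 and *Pde6c* at chr19:38132781-38183958, all on the plus strand, and *Gnb3* at chr6:124834240-124840275 on the minus strand. Exons of the longest principal transcript of *Opn1sw* overlap the antisense gene *Calu* by 397 bases. The counting is not stated to use strand, so reads from that stretch cannot be told apart. *Calu* stood at 7131 ± 281 (SD, n = 5) in the libraries labeled VAD Stra6-/- and 2934 ± 1109 (SD, n = 5) in VAD WT, opposite in direction to *Opn1sw*.

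RefSeq promoter windows on GRCm38.p6 were at hand for 6 of the 10 members. The 250 bases before the start are shown for *Opn1sw* (chr6:29380514-29380763, minus strand), *Opn1mw* (chrX:74127216-74127465, plus strand), *Pde6h* (chr6:136954273-136954522, plus strand) and *Arr3* (chrX:100605247-100605496, plus strand), whose transcripts were lowest in the libraries labeled VAD Stra6-/-, and for *Gnat2* (chr3:108092816-108093065, plus strand), whose transcript was not. The start is that of RefSeq. For *Opn1sw*, *Gnat2* and *Pde6h* it lies inside the GENCODE gene bounds given above, so these windows are not upstream of those bounds. Capitals mark the letters TAATCC or TAATCT on either strand, forms of the site that the photoreceptor homeodomain protein CRX is known to bind.
Opn1sw: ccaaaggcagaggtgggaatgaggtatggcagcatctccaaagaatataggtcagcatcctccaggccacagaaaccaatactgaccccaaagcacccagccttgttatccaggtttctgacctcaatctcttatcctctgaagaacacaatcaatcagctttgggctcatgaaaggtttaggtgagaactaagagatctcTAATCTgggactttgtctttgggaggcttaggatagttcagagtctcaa
Opn1mw: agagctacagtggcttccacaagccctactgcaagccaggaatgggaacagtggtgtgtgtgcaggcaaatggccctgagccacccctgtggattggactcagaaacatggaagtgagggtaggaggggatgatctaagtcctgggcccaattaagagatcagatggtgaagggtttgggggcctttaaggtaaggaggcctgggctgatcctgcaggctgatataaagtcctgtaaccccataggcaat
Gnat2: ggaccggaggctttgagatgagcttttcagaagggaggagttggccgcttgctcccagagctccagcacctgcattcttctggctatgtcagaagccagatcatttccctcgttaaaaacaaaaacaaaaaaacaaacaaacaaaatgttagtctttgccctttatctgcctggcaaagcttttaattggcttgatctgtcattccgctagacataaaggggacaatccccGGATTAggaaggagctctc
Pde6h: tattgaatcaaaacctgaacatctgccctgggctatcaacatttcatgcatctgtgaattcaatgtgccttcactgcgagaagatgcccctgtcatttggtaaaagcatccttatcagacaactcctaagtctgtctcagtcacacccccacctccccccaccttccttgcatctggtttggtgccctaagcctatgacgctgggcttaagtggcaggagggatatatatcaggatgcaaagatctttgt
Arr3: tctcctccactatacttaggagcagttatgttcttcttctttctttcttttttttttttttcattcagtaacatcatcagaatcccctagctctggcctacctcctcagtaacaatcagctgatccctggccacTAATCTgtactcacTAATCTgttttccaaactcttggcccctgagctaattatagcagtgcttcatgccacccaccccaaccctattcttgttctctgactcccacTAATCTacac

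*Arr3* held 3 matches of TAATCT, *Opn1sw* held 1, *Gnat2* held 1 match of TAATCC on the opposite strand, and *Opn1mw* and *Pde6h* held none. Neither of the 2 windows of *Cnga3* held a match. Among all 32851 promoters of the table, 6.25% held TAATCC, 7.31% held TAATCT and 12.8% held either in a window of the same length. The members that stood lowest included promoters with and without these letters.

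The opsins bind the chromophore and set the wavelengths a cone responds to. *Opn1sw*, the short-wavelength opsin, read 658, 611, 671, 612 and 804 in VAS WT, 394, 1449, 366, 1485 and 463 in VAD WT, 142, 135, 165, 130.1 and 156 in VAS Stra6-/- and 13.1, 30.7, 27.6, 43.0 and 31.3 in the libraries labeled VAD Stra6-/-, in the order of the replicates. No library labeled VAD Stra6-/- reached any other library, and VAD WT replicates 2 and 4 lay above all others. *Opn1mw*, the medium-wavelength opsin, read 297, 197, 215, 209.7 and 227 in VAS WT, 70.7, 269.9, 69.5, 236 and 80.6 in VAD WT, 67.0, 82.3, 96.6, 79.4 and 81.5 in VAS Stra6-/- and 6.05, 4.51, 2.05, 12.3 and 2.54 in the libraries labeled VAD Stra6-/-. Here VAD WT replicates 1, 3 and 5 overlapped VAS Stra6-/-, and the libraries labeled VAD Stra6-/- again lay below the rest. Per kb of the longest principal transcript, the mean in VAS WT was 279 ± 32.8 for *Opn1sw* and 187 ± 32.3 for *Opn1mw* (SD, n = 5).

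Transducin is made of an alpha, a beta and a gamma subunit. *Gnat2*, the cone alpha subunit, read 733, 571, 714, 596 and 755 in VAS WT, 793, 745, 689.6, 655 and 857 in VAD WT, 168, 178, 173, 169.8 and 164 in VAS Stra6-/- and 331, 220.1, 268, 305 and 217 in the libraries labeled VAD Stra6-/-. Unlike the opsins, it was higher in every library labeled VAD Stra6-/- than in any VAS Stra6-/- library. *Gnb3*, the cone beta subunit, was between 1501 and 2047 in VAS WT, 2065 and 2182 in VAD WT, 729 and 822 in VAS Stra6-/-, and 406 and 529 in the libraries labeled VAD Stra6-/-, with no overlap between any of these ranges. *Gngt2*, the cone gamma subunit, was between 310.2 and 442, 304 and 434, 126 and 168, and 129 and 209.7 in the same order, and its Stra6-/- groups overlapped. Per kb of transcript, *Gnb3* stood at 913 ± 116 (SD, n = 5) in VAS WT and *Gnat2* at 328 ± 41.0 (SD, n = 5). Bulk tissue does not show whether all of the *Gnb3* RNA came from cones.

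PDE6 of cones pairs the catalytic subunit *Pde6c* with the inhibitory subunit *Pde6h*. *Pde6h* read 469, 447, 493, 471 and 511 in VAS WT, 265, 541, 261, 385 and 181 in VAD WT, 118, 112, 109.8, 112 and 115 in VAS Stra6-/- and 4.03, 12.6, 7.17, 9.66 and 6.76 in the libraries labeled VAD Stra6-/-. *Pde6c* read 187, 143, 131, 137 and 190.1 in VAS WT, 162, 355, 126, 384 and 105 in VAD WT, 78.2, 38.4, 67.1, 61.7 and 86.2 in VAS Stra6-/- and 132, 106, 121, 111 and 164 in the libraries labeled VAD Stra6-/-. In the libraries labeled VAD Stra6-/- *Pde6h* thus lay below every other library, while *Pde6c* overlapped both WT groups.

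The cyclic GMP-gated channel of cones is built from *Cnga3* and *Cngb3*. *Cnga3*, the alpha subunit, read 62.8, 16.3, 34.0, 66.3 and 81.2 in VAS WT, 36.5, 44.3, 51.1, 47.1 and 52.0 in VAD WT and 3.05, 16.5, 7.12, 4.22 and 0.937 in VAS Stra6-/-, and was at 0 in 4 of the 5 libraries labeled VAD Stra6-/- and at 3.07 in replicate 3. Replicates 2 to 5 of that group, in which reads could be recovered, held 3 *Cnga3* reads in all, against 205 in the 5 libraries of VAD WT, so that VAD WT was 67.5-fold higher with a 95% counting interval of 22.8 to 330.04. *Cngb3*, the beta subunit, was between 51.0 and 84.9 in VAS WT, 28.3 and 77.9 in VAD WT, 16.9 and 32.9 in VAS Stra6-/-, and 14.3 and 27.1 in the libraries labeled VAD Stra6-/-. In the libraries labeled VAD Stra6-/- *Cnga3* was thus nearly absent, while *Cngb3* overlapped VAS Stra6-/-.

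*Arr3*, the cone arrestin, read 451, 389, 406, 470.2 and 512 in VAS WT, 565, 677, 546, 599 and 591 in VAD WT, 72.1, 81.2, 86.4, 92.9 and 71.2 in VAS Stra6-/- and 0, 5.41, 11.3, 5.27 and 0 in the libraries labeled VAD Stra6-/-. Every VAD WT library lay above every VAS WT library, and the 2 libraries at 0 were replicates 1 and 5 of those labeled VAD Stra6-/-. Per kb of transcript, *Arr3* stood at 328 ± 36.6 (SD, n = 5) in VAS WT, level with *Gnat2*, and the channel subunits at 14.7 ± 7.41 for *Cnga3* and 14.4 ± 2.76 for *Cngb3*, the lowest of the set.

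**Figure D1:**
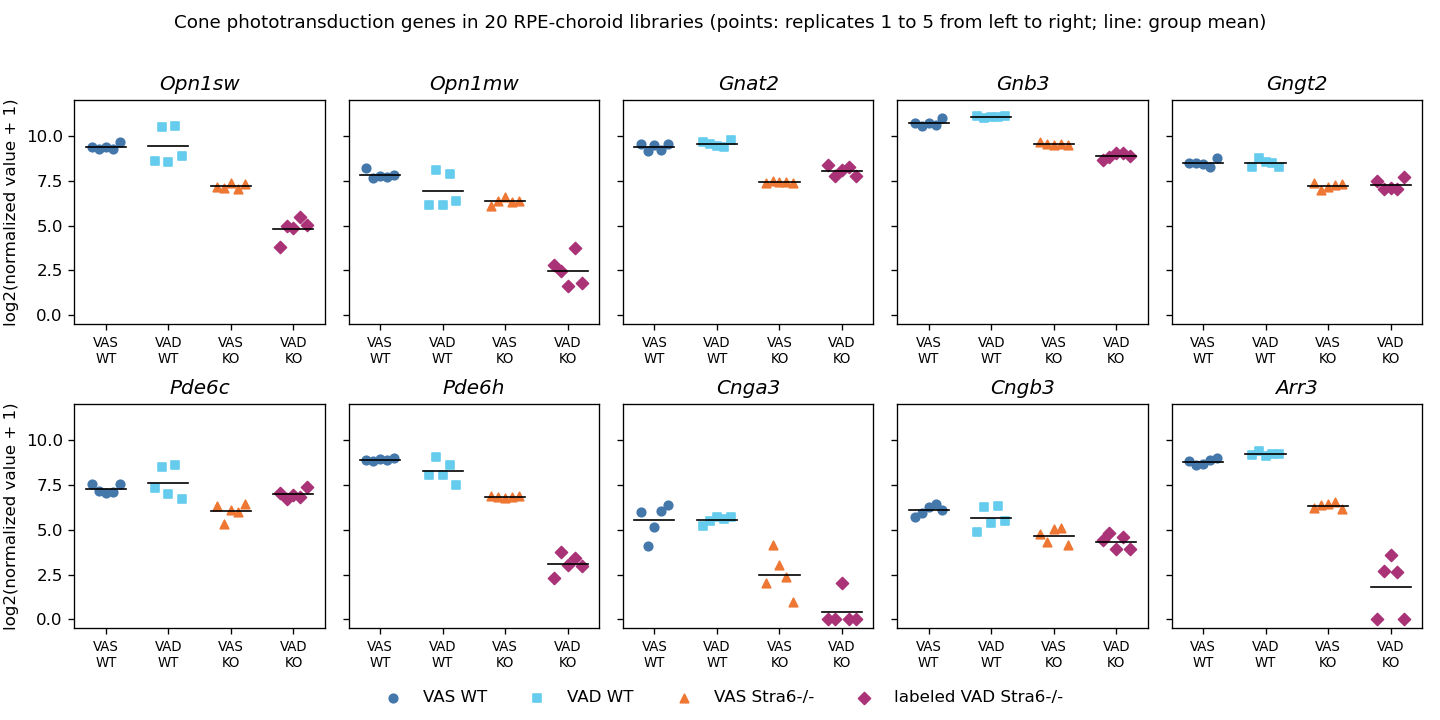
Normalized values of the 10 cone genes as log2(value + 1), 1 panel per gene, with 1 point per library in the order of the replicates and a line at the mean of each group (KO is Stra6-/-). *Opn1sw*, *Opn1mw*, *Pde6h*, *Cnga3* and *Arr3* lie between 0 and 43.0 normalized units in the libraries labeled VAD Stra6-/-, and the other 5 genes at 14.3 or more. These levels overlap, since *Cngb3* (14.3 to 27.1) lies within the range of *Opn1sw* (13.1 to 43.0) there.

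In VAS Stra6-/- all 10 members had a lower mean than in VAS WT. The mean was 21.7% of that in VAS WT for *Opn1sw*, 35.5% for *Opn1mw*, 25.3% for *Gnat2*, 44.9% for *Gnb3*, 41.2% for *Gngt2*, 42.1% for *Pde6c*, 23.7% for *Pde6h*, 12.2% for *Cnga3*, 37.3% for *Cngb3* and 18.1% for *Arr3*. The value of *Cnga3* rested on replicate 2, without which it was 7.35%. In 9 of the 10 the groups did not overlap, where 13.2% of all genes were lower without overlap, and *Cnga3* was the exception, since VAS Stra6-/- replicate 2 (16.5) lay above VAS WT replicate 2 (16.3). The median log2 difference of the members was -1.72 (range -3.04 to -1.15), beside 0.02 over all genes. The rod counterparts had a median of -0.06 (range -0.58 to 0.43) in the same libraries. Because the members were chosen with this comparison known, these figures describe the choice and carry no test.

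**Figure D2:**
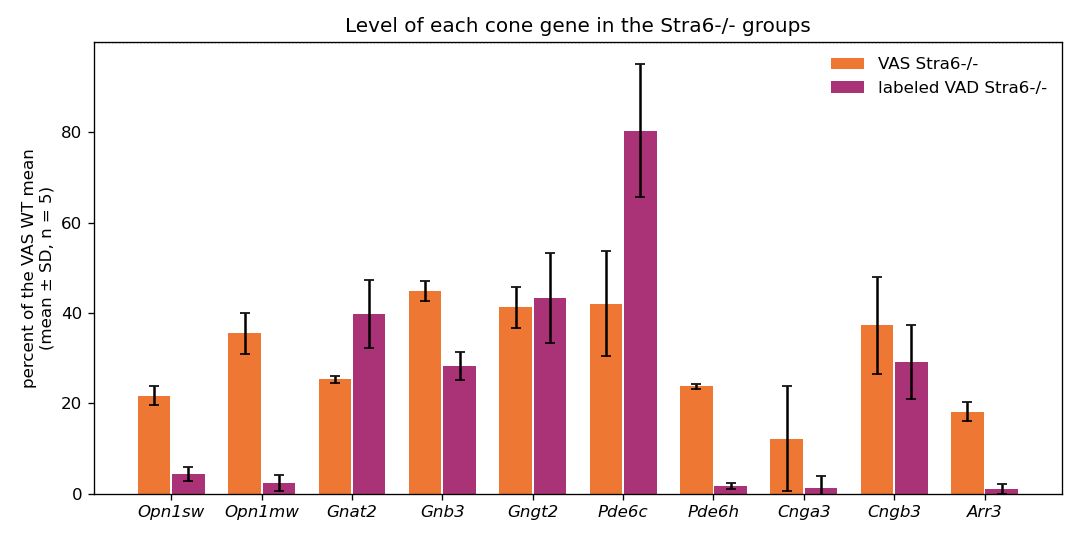
Mean of each cone gene in the Stra6-/- groups as a percent of its VAS WT mean (bars, with SD over 5 libraries as error bars, which are cut off at 0). In VAS Stra6-/- the bars run from 12.2% to 44.9%, and in the libraries labeled VAD Stra6-/- from 0.985% to 80.3%.

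The genotypes on the VAD diet share no library with the comparison by which the members were chosen. The tests are still not fully separate from that choice. Their spread was estimated over all 20 libraries, and the members and tests were chosen with earlier results of these data known. Between the libraries labeled VAD Stra6-/- and VAD WT, 9 of the 10 members fell at an adjusted p under 0.05 (limma on log2(value + 1), Benjamini-Hochberg over all genes), where 29.6% of all genes were called lower and 26.2% higher. The groups did not overlap in the same 9, where 19% of all genes were lower without overlap. The median log2 fold change of the members was -3.30, beside -0.05 over all genes. The steepest change was that of *Arr3*, at -7.43 on the log2 scale with a standard error of 0.49 (adjusted p = 3.64e-11, limma), followed by *Pde6h* at -5.15 (0.26, adjusted p = 4.13e-13), *Cnga3* at -5.14 (0.55, adjusted p = 6.74e-08), *Opn1sw* at -4.59 (0.35, adjusted p = 3.27e-10) and *Opn1mw* at -4.44 (0.40, adjusted p = 5.90e-09). The others that fell were *Gnb3* at -2.16 (0.08, adjusted p = 6.18e-15), *Gnat2* at -1.49 (0.12, adjusted p = 8.69e-10), *Cngb3* at -1.33 (0.31, adjusted p = 0.00107) and *Gngt2* at -1.19 (0.15, adjusted p = 7.09e-07). These fold changes are on the scale with 1 added, which understates those of *Cnga3* and *Arr3*, whose values reached 0. *Pde6c*, at -0.65 (0.31, adjusted p = 0.0809, limma), missed the threshold. With counting tests on 19 libraries it passed (adjusted p = 0.0281 with edgeR and 0.0202 with DESeq2), and without VAD WT replicates 2 and 4 its log2 fold change was -0.05 (adjusted p = 0.904, limma). With the mean rod level as a covariate, *Cngb3* no longer passed (-0.40, adjusted p = 0.506, limma) and *Pde6c* turned to 0.71 (adjusted p = 0.0749), while *Opn1sw* was at -2.82 (adjusted p = 2.05e-09) and *Opn1mw* at -2.72 (adjusted p = 1.69e-05). Without VAD WT replicates 2 and 4 these opsins were at -3.84 and -3.73, and 9 members still fell, where 32.5% of all genes were called lower. Past a log2 fold change of -2 there were 6 members, where 6.86% of all genes were called that far down.

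Of the 10 rod counterparts 8 fell in the same comparison, where 29.6% of all genes were called lower and 26.2% higher. Their median log2 fold change was -1.08, with a range of -1.64 to -0.05. *Gnat1* was at -1.25 with a standard error of 0.21 (adjusted p = 2.71e-05, limma) and *Pde6g*, the rod PDE6 inhibitory subunit, at -1.35 (0.19, adjusted p = 3.95e-06). *Sag*, the rod arrestin, was at -0.05 (0.22, adjusted p = 0.860) and *Gnb1*, a beta subunit that many cell types use, at -0.07 (0.23, adjusted p = 0.817). The values of the rod genes depended on VAD WT replicates 2 and 4. Without them 8 fell and 2 rose, where 32.5% of all genes were called lower and 30.7% higher. The median was then -0.66, with *Gnat1* at -0.75 and *Pde6g* at -0.88. The rod counterparts that rose were *Sag*, at 0.49 (adjusted p = 7.06e-08, limma), and *Gnb1*, at 0.50 (adjusted p = 2.43e-09). Markers of other tissues moved with this comparison. Of the 8 RPE genes 7 rose, with *Rgr*, the RPE retinal opsin, at 4.13 and *Ttr*, which carries retinol in complex with its binding protein, at 3.50. The 7 surface epithelium genes all fell, with the corneal keratin *Krt12* at -6.40 and the basal keratin *Krt5* at -4.84. Of 4 endothelium genes 2 rose, with *Pecam1* at 1.22 among them, and 2 did not pass, with *Plvap* at 0.30, and without VAD WT replicates 2 and 4 all 4 rose, with *Plvap* at 0.92. Their part in the results for the cone genes was not tested.

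**Figure D3:**
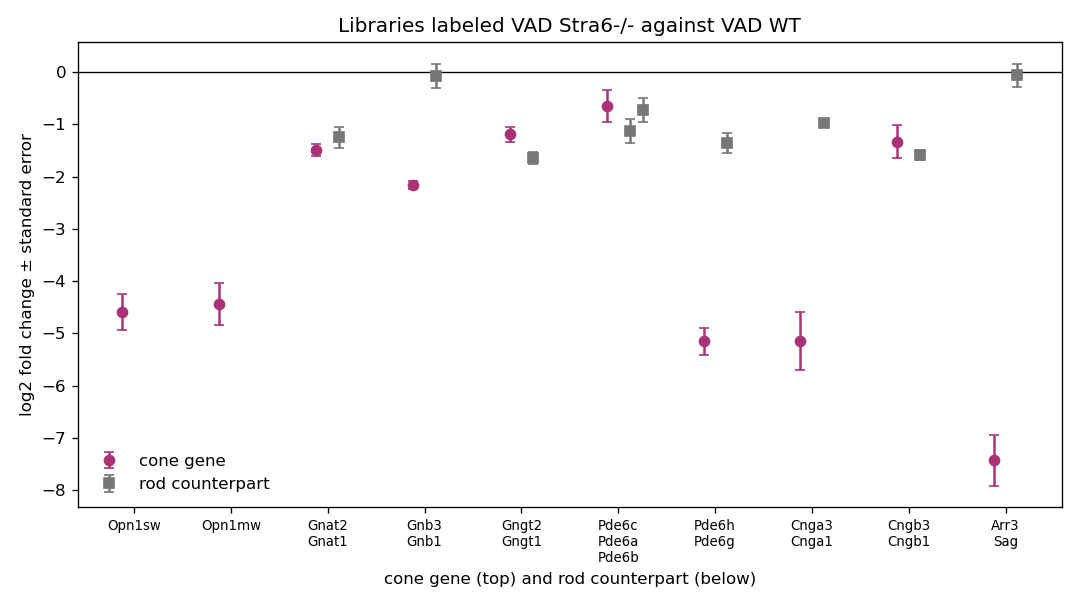
Log2 fold change (limma, with its standard error as error bar) of each cone gene (circles) and, except for the opsins, its rod counterpart (squares) in the libraries labeled VAD Stra6-/- against VAD WT. The rod genes lie between -1.64 and -0.05, the cone genes between -7.43 and -0.65, with *Gnat2*, *Gngt2*, *Pde6c* and *Cngb3* near their rod counterparts.

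The distance of a cone gene from its rod counterpart was taken within each library as the difference of their log2(value + 1), which hardly depends on the scaling between libraries unless a gene is near 0. Set to 0 at the VAS WT mean, the log2 difference of *Pde6h* to *Pde6g* was -1.84 ± 0.08 in VAS Stra6-/- and -4.56 ± 0.47 in the libraries labeled VAD Stra6-/- (SD, n = 5). For *Arr3* to *Sag* it was -2.55 ± 0.20 in VAS Stra6-/-. The -7.06 ± 1.71 of that pair in the libraries labeled VAD Stra6-/- holds 2 libraries with *Arr3* at 0, so that it depends on the 1 that was added and is no bound. The reverse order held for *Gnat2* to *Gnat1*, with -2.22 ± 0.10 in VAS Stra6-/- and -0.51 ± 0.33 in the libraries labeled VAD Stra6-/-, for *Gngt2* to *Gngt1*, with -0.78 ± 0.20 and 0.25 ± 0.34, and for *Pde6c* to the mean of *Pde6a* and *Pde6b*, with -1.37 ± 0.43 and 0.27 ± 0.31. In VAD WT the difference of *Pde6c* to the mean of *Pde6a* and *Pde6b* stayed between -0.36 and 0.39 over all 5 libraries. There *Gnb3* to *Gnb1* spread from -0.66 to 0.93 and *Gnat2* to *Gnat1* from -1.22 to 0.45. These differences are a description without a test.

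**Figure D4:**
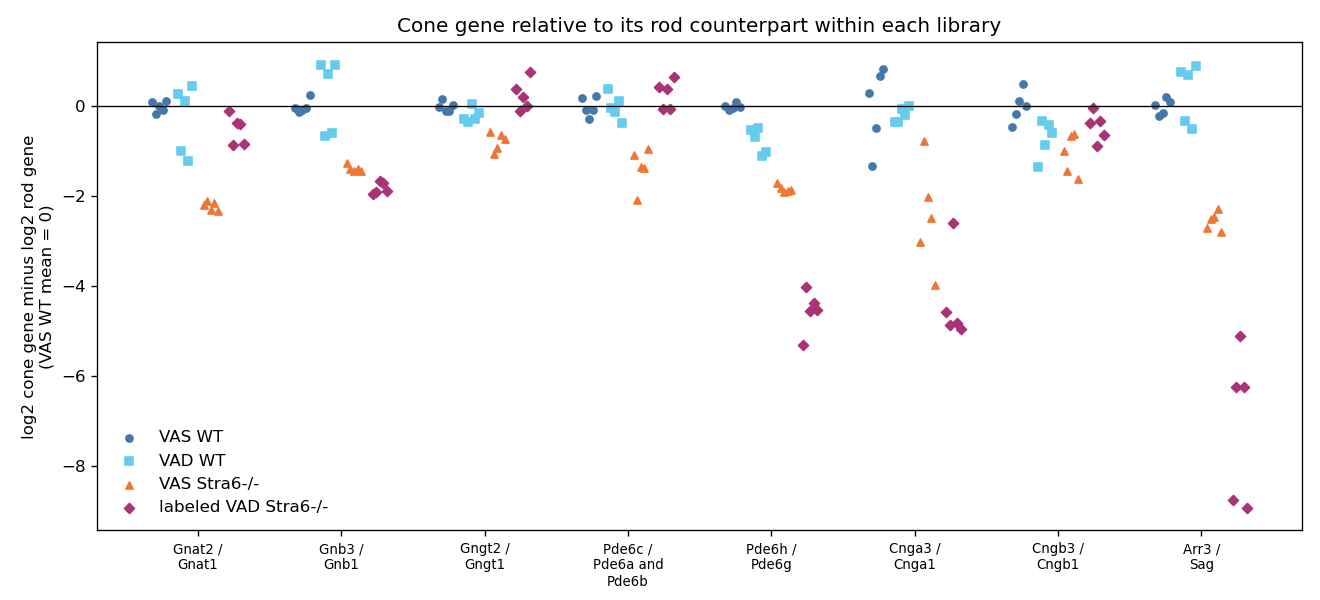
Log2 level of each cone gene other than the opsins minus that of its rod counterpart in each library, with the VAS WT mean set to 0 (1 point per library). *Arr3* and *Cnga3* hold libraries at 0, whose points depend on the 1 that was added. The VAS Stra6-/- group means lie between -2.55 and -0.78, and the libraries labeled VAD Stra6-/- split into gene pairs at -1.66 or lower and pairs between -0.88 and 0.76.

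The diet comparison in Stra6-/- shares the VAS Stra6-/- libraries with the comparison by which the members were chosen. *Xist* had a mean of 4011 in the libraries labeled VAD Stra6-/- and 16448 in VAS Stra6-/-, and *Ddx3y* of 870 and 0.203, both without overlap. Diet and this difference in sex-linked RNA cannot be told apart here, and *Arr3* and *Opn1mw* are X-linked. Between the libraries labeled VAD Stra6-/- and VAS Stra6-/-, 6 members fell and 2 rose, where 28.8% of all genes were called lower and 24.4% higher. The members that fell were *Arr3* (-4.56 on the log2 scale, with a standard error of 0.49 and an adjusted p = 7.57e-08 in limma), *Opn1mw* (-3.87), *Pde6h* (-3.74), *Opn1sw* (-2.37), *Cnga3* (-2.10) and *Gnb3* (-0.67), and the first 5 lay past -2, where 7.4% of all genes did. Of those 5, *Cnga3* ran from -2.50 to -1.69 when 1 library was left out, the latter without VAS Stra6-/- replicate 2, and was at -1.03 with a pseudocount of 4, and *Opn1sw* was at -1.14 with the mean rod level as a covariate. The members that rose were *Pde6c*, by 0.95 (standard error 0.31, adjusted p = 0.0126, limma), and *Gnat2*, by 0.63 (0.12, adjusted p = 0.000128). The 3 *Cnga3* reads stood against 31 in VAS Stra6-/-, which was 8.88-fold higher with a 95% counting interval of 2.77 to 45.4. *Gngt2* was at 0.05 (adjusted p = 0.807) and *Cngb3* at -0.33 (adjusted p = 0.394). The median of the members was -1.38, beside -0.97 for the rod counterparts, of which 6 fell and 4 did not pass the test, and -0.07 over all genes. The split between *Opn1sw*, *Opn1mw*, *Pde6h*, *Cnga3* and *Arr3*, at 0.985% to 4.34% of their VAS WT mean, and the other 5 members, at 28.3% to 80.3%, was seen in the values of these libraries and has no test of its own. Replicate 3 carried the lowest of these shares, since without it *Arr3* was at 0.599% and *Cnga3* at 0.

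The diet comparison in WT shares the VAS WT libraries with the comparison by which the members were chosen. Between VAD WT and VAS WT 1 of the 10 members was called, where 8.78% of all genes were. *Gnb3* rose by 0.34 log2 units with a standard error of 0.08 (adjusted p = 0.0105, limma), where 3.29% of all genes were called higher. *Arr3*, at 0.42 (0.49, adjusted p = 0.679), did not pass, but it did with only the WT groups in the fit (adjusted p = 0.0388, limma) and with DESeq2 (adjusted p = 0.00543). In *Arr3* and *Gnb3* every VAD WT library lay above every VAS WT library, which was so in 2.13% of all genes. The median of the members was 0.02. The count depended on VAD WT replicates 2 and 4. Without them 4 members were called, where 37.9% of all genes were, with *Opn1mw* at -1.61 (adjusted p = 0.00135, limma), *Pde6h* at -1.04 (adjusted p = 0.00227) and *Opn1sw* at -0.72 (adjusted p = 0.0237) lower and *Gnb3* at 0.37 (adjusted p = 0.00327) higher. *Opn1sw*, *Opn1mw*, *Pde6c*, *Pde6h*, *Cngb3* and *Arr3* each had their highest VAD WT values in replicates 2 and 4, as *Gnat1* did. *Gnat2* and *Gnb3* had theirs in replicates 5 and 1, *Cnga3* in replicates 5 and 3 and *Gngt2* in replicates 2 and 3.

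Genes that serve photoreceptors more widely were read in the same comparison, the libraries labeled VAD Stra6-/- against VAD WT. There 29.6% of all genes were called lower and 26.2% higher. Without VAD WT replicates 2 and 4 these shares were 32.5% and 30.7%. A list of 17 genes held phototransduction and visual cycle machinery that rods and cones share or that belongs mainly to either. Of these 10 fell, 2 rose and 5 did not pass, with a median log2 fold change of -0.73. Without VAD WT replicates 2 and 4 the same list had 7 lower, 7 higher and a median of -0.14. *Grk1*, the opsin kinase, fell by 1.27 (standard error 0.15, adjusted p = 2.35e-07, limma) and *Abca4*, a retinoid transporter of outer segments that the RPE also expresses, rose by 0.52 (0.07, adjusted p = 9.11e-07). Of 9 photoreceptor transcription factors 6 fell, 1 rose and 2 did not pass, and *Crx* fell by 0.79 (0.25, adjusted p = 0.00976) and *Nrl*, the rod determinant, by 0.97 (0.27, adjusted p = 0.00478). Both were carried in large part by VAD WT replicates 2 and 4, where *Crx* was at 6420 and 6327 against 1980 to 2367 in the others. Without them *Crx* was at -0.16 (adjusted p = 0.0264, limma) and *Nrl* at -0.27 (adjusted p = 0.000742), and 3 regulators fell and 2 rose. *Thrb*, the thyroid hormone receptor that cones need for their medium-wavelength opsin, rose by 0.67 (0.17, adjusted p = 0.00192), and *Rxrg*, its partner in cones, was at 0.17 (0.41, adjusted p = 0.761), both named after their values were seen, and they were at 1.04 and 0.51 without the same 2 libraries. Of 8 outer segment structure genes 3 fell, 1 rose and 4 did not pass, with *Prph2*, a disc rim protein, down by 0.81 (0.19, adjusted p = 0.000876) and its partner *Rom1* at -0.17 (0.23, adjusted p = 0.556). Leaving out VAD WT replicates 2 and 4, 3 genes fell and 5 rose, with *Prph2* at -0.35 (adjusted p = 1.20e-05, limma) and *Rom1* turned to 0.40 (adjusted p = 4.33e-06).

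Markers of inner retinal neurons and Müller glia were read in the same libraries. Their sum over 17 genes was between 32621 and 35155 in VAS WT, 31189.7 and 53425 in VAD WT, 46018 and 47483 in VAS Stra6-/-, and 51597 and 58481 in the libraries labeled VAD Stra6-/-. The sum of the 10 cone genes was 1541 to 1664 in VAS Stra6-/- and 985.9 to 1165 in the libraries labeled VAD Stra6-/-, against 4291 to 5637 in VAS WT. The inner retina sum was led by *Glul*, glutamine synthetase of Müller glia, a gene other tissues use as well. *Glul* had means of 22229 in VAS WT, 37095 in VAS Stra6-/- and 44141 in the libraries labeled VAD Stra6-/-. The sum had means of 33776, 46992 and 54761 there, so it mostly shows *Glul*. In VAS Stra6-/- 8 of the 17 genes were lower than in VAS WT without overlap, where 13.2% of all genes were. Another 3 were higher without overlap, *Glul* among them. Against VAD WT, 8 of the 17 genes fell in the libraries labeled VAD Stra6-/-, 2 rose and 7 did not pass, where 29.6% of all genes were called lower and 26.2% higher. The 2 that rose were those with the highest means, *Glul*, by 0.67 (standard error 0.14, adjusted p = 0.000248, limma), and *Slc6a9*, a glycine transporter, by 1.16 (0.06, adjusted p = 2.16e-13). The steepest fall of the list was that of *Pcp2*, at -1.99 (0.16, adjusted p = 8.14e-10, limma), which is named again below. Leaving out VAD WT replicates 2 and 4, the counts were 6 lower and 4 higher, where 32.5% of all genes were called lower and 30.7% higher. The share of the list called lower was then near that of all genes.

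Over the 20 libraries, *Gnb3* (Pearson r = 0.96) and *Opn1sw* (0.96) followed the mean of the other members most closely on the log2 scale and *Pde6c* (0.49) least. The genes outside the set whose levels were most like the mean standardized level of the members, among 15535 genes with a mean value of at least 10, were *Pex5l* (0.98), *Pcp2* (0.97), *C130021I20Rik* (0.97), *Tmem145* (0.96), *Cbx7* (0.96), *Sipa1* (0.96), *Samd11* (0.96), *Psd* (0.95), *Mak* (0.95) and *Cnga1* (0.95), the rod channel subunit. *Pex5l* had a mean of 1597 in VAS WT, 1633 in VAD WT, 930 in VAS Stra6-/- and 776 in the libraries labeled VAD Stra6-/-. These correlations describe 4 groups whose means differ, in libraries that share their size factors. For deviations from the group means, the r of these 10 genes ran from -0.38 for *Samd11* to 0.66 for *C130021I20Rik*. Without VAD WT replicates 2 and 4 only 3 of the 10 genes remained among the 10 most alike, although their r was still between 0.94 for *Cnga1* and 0.98 for *Pex5l*.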

How the data were processed

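RNA-seq values of 20 RPE-choroid samples, 5 in each of 4 groups, were used. By the methods of the study, alignment to GRCm38/mm10 was done by the authors in STAR 2.5.3a, gene quantification in RSEM 1.2.30 and normalization in DESeq2. The deposited signal is the gene count divided by 1 size factor per sample, with no length or log scaling: 100% of the values of 19 libraries are multiples of the worth of 1 read, within a tolerance of 0.01 reads. Replicate 1 of the libraries labeled VAD Stra6-/- was not recovered with certainty and entered neither the counting tests nor the ratios of reads.

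Genes with at least 5 reads in total were kept, 1 read being the lowest value above 0 in a library. log2(value + 1) was tested with limma 3.58.1 in R 4.3.3, with a mean for each group, a trend and all 20 libraries, at an adjusted p under 0.05. edgeR 4.0.16 and DESeq2 1.42.0 on the recovered reads were alternatives (edgeR called 9940 genes between the libraries labeled VAD Stra6-/- and VAD WT, 9455 against VAS Stra6-/- and 1529 between VAD WT and VAS WT), with others for pseudocount, filter, scaling and libraries. Intervals cover counting error only.

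The members, lists and tests were chosen with earlier results of these data known. The text names all members, their rod counterparts where a result turns on them, the 2 genes of each other list with the highest mean, the 10 genes most like the members, and *Stra6*, *Xist* and *Ddx3y*. *Thrb*, *Rxrg* and the overlapping *Calu* were named beyond that rule, after the values were seen, and the other lists were read without VAD WT replicates 2 and 4 for the same reason. The single values of 1 listed gene are not reported here. *Prcd* was listed but has no row in the table. limma and edgeR were tried on simulated counts with the same spread for all genes and no split within a group. Changes were placed only in genes with more than a few reads. That trial therefore does not cover members with few reads or the split within VAD WT.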

Additional observations from a re-analysis of the deposited data

Results flagged for a closer look

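*Arr3* and *Gnb3* had opposite log2 fold changes with the VAD diet in the genotypes. *Arr3* was at 0.42 between VAD WT and VAS WT, with every VAD WT library above every VAS WT library, and at -4.56 between the libraries labeled VAD Stra6-/- and VAS Stra6-/-, with every library lower. *Gnb3* was at 0.34 in WT and -0.67 in Stra6-/-, again without overlap. Whether the diet effects differ between the genotypes was not tested, and the *Stra6* level went against the label of the libraries labeled VAD Stra6-/-. *Stra6* was also lower in every VAD WT library than in any VAS WT library. *Xist* and *Ddx3y* also differed without overlap between the Stra6-/- groups, and *Xist* between the WT groups.

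Of the 40 sets of 5 values (10 members in 4 groups), 2 held a library far from the others by Dixon's criterion. *Cnga3* was at 3.07 in replicate 3 of the libraries labeled VAD Stra6-/- and at 0 in the other 4, a value of 3 reads. *Gnb3* was at 822 in VAS Stra6-/- replicate 1, against 729 to 753 in the others. Chance flags about 1 set in 20.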

How the results depend on the processing

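The counts of members called between the libraries labeled VAD Stra6-/- and VAD WT ran from 9 to 10 when 1 library was left out, stayed at 8 against VAS Stra6-/- and ran from 1 to 2 between VAD WT and VAS WT, with 2 without VAD WT replicate 2, where *Pde6h* was called at -0.86 (adjusted p = 0.0252, limma). The median log2 fold change of the members ran from -1.78 to -1.70 in VAS Stra6-/- against VAS WT, from -3.47 to -3.16 and from -1.54 to -1.18 in the libraries labeled VAD Stra6-/- against VAD WT and VAS Stra6-/-, and from -0.04 to 0.14 between the WT groups. A pseudocount of 4 moved the medians of the libraries labeled VAD Stra6-/- to -2.81 against VAD WT and -0.85 against VAS Stra6-/-, and the rod level as a covariate to -2.45 and -0.91. With that covariate *Pde6c* turned to 0.71 against VAD WT, *Cngb3* to 0.31 against VAS Stra6-/- and *Opn1sw* to -0.38 between the WT groups, where 3 members were then called, and *Cngb3* lost its call against VAD WT at -0.40 (adjusted p = 0.506, limma). The count between the WT groups was 2 with only those groups in the fit or with DESeq2, 4 without VAD WT replicates 2 and 4, and 0 past a log2 fold change of 1 or 2. Without replicates 2 and 4 *Opn1sw* turned to -0.72 and *Pde6c* to -0.27 there, and 3 of the 10 genes most like the members remained. Against VAS Stra6-/- 5 members passed a log2 fold change of 1, and 5 passed 2. *Cnga3* between the WT groups turned to -0.00145 with a pseudocount of 4 and to -0.17 with edgeR or DESeq2. Leaving out 1 library, the log2 fold change between the WT groups ran from -0.26 to 0.25 for *Opn1sw*, from -0.34 to 0.22 for *Cnga3* and from -0.10 to 0.047 for *Gngt2*, none of them called, and that of *Gngt2* against VAS Stra6-/- from -0.061 to 0.11. *Pde6c* against VAD WT was called without VAD WT replicate 3 (-0.81) or 5 (-0.87). The causes were not tested. The replicate numbers did not pair the libraries (correlations of deviations from -0.07 to 0.07 over 20 pairs, and not every library correlated best with its own number), and with a replicate block 9, 1 and 8 members were called, the counts without it. At under 100 reads in every library with recovered reads, *Cnga3* and *Cngb3* were limited by depth. This also held for *Opn1mw* and *Pde6c* in VAS Stra6-/-. In the libraries labeled VAD Stra6-/- with recovered reads, *Opn1sw*, *Opn1mw*, *Pde6h* and *Arr3* held 49 reads or fewer, so that the steepest fold changes rest on few reads.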
